A study of Mus musculus with 12 samples.

Results

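The CC chemokine ligands described here are *Ccl2*, *Ccl3*, *Ccl4*, *Ccl5*, *Ccl6*, *Ccl7*, *Ccl9*, *Ccl17*, *Ccl22*, and *Ccl24*. These 10 genes were chosen by symbol, with earlier results of these data known. Each symbol matched 1 of the 40551 Ensembl genes counted in the files. Their read counts were followed in total RNA-seq libraries of 12 mouse livers, 3 from each of 4 genotypes. The groups were wild type (WT), Mcl1Δhep, Mcl1Δhep Sting1-/-, and Sting1-/-. In Mcl1Δhep mice, a Cre recombinase driven by the albumin promoter removes floxed *Mcl1*, which encodes an antiapoptotic BCL2 family protein, from hepatocytes, so the other cells of the liver keep the gene. Sting1-/- mice lack STING, the adaptor of cytosolic DNA sensing, in every cell, and the double-deficient mice came from crossing both lines. The WT and Mcl1Δhep livers used for sequencing are described as 2 months old, and no age is given beside the sequenced Sting1-/- groups. *Mcl1* was lower in Mcl1Δhep than in WT livers (log2 fold change −1.77, with a standard error, SE, of 0.16, edgeR adjusted p = 0.000605) and lower in Mcl1Δhep Sting1-/- than in Sting1-/- livers (−1.87, adjusted p = 0.00145). Reads on *Sting1* did not check the other deletion, since they were present at 1.16 to 2.70 CPM (reads scaled to a common library size) in the libraries labelled Sting1-/- and at 2.11 to 2.53 in WT. Directions drawn from the Sting1-/- groups therefore rest on their labels.

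Between 28826367 and 45266387 reads per library were counted on genes. Some libraries stood apart. Mcl1Δhep replicates 2 and 3 held 2.44 and 1.47% of their counts on small structured RNAs, against 0.219 to 0.961% in the other libraries. Mcl1Δhep replicate 3 also held a summed 1467 CPM of 8 skeletal muscle markers, and WT replicates 2 and 3 and Mcl1Δhep Sting1-/- replicate 1 had Y-linked reads at 142 to 147 CPM, against at most 0.201 CPM in the other 9 libraries. The study used mice of both sexes, and Y-linked reads mark male livers. Sex was thus not balanced between the genotypes, with reads at that level in WT livers but in no Mcl1Δhep liver. Hepatocyte markers led the libraries, with a summed 105092 to 167777 CPM over 10 markers. CPM were scaled with edgeR's TMM factors, and genes were tested with its quasi-likelihood test over all 15070 genes that passed a filter on low counts. A gene is called when its Benjamini-Hochberg adjusted p is under 0.05. Of the 10 ligands, 9 passed the filter and *Ccl17* did not. Nothing in the labels beyond the replicate number says how the livers were collected, so the p-values measure the spread between these 3 libraries per group.

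CC chemokines are small secreted proteins that guide leukocytes along concentration gradients through G protein-coupled CC receptors. In the liver, *Ccl2* and *Ccl7* are known as the ligands that draw CCR2-positive monocytes out of the circulation. *Ccl3*, *Ccl4*, and *Ccl5* are inflammatory ligands made by activated macrophages, T cells, and NK cells, *Ccl6* and *Ccl9* are CCR1 ligands that mouse myeloid cells produce without stimulation, *Ccl17* and *Ccl22* are the CCR4 ligands of dendritic cells and alternatively activated macrophages, and *Ccl24* is an eotaxin that acts on CCR3 of eosinophils. The family is named for a pair of adjacent cysteines near the N terminus of the mature protein. The coding bases around that pair are shown for 1 or 2 ligands of each receptor group, from GENCODE vM39 on GRCm39, written 5′ to 3′ along the coding strand, with the adjacent cysteine codons in capitals.
Ccl2, codons 34 and 35, chr11:81927314-81927355, plus strand: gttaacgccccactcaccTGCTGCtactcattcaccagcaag
Ccl4, codons 34 and 35, chr11:83554290-83554331, plus strand: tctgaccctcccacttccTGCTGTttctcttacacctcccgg
Ccl6, codons 50 and 51, chr11:83480194-83480235, minus strand: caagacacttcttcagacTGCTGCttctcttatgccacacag
Ccl9, codons 57 and 58, chr11:83466734-83466775, minus strand: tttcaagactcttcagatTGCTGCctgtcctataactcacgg
Ccl22, codons 36 and 37, chr8:95473544-95473585, plus strand: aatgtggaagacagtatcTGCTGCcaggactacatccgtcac
Ccl24, codons 33 and 34, chr5:135601501-135601542, minus strand: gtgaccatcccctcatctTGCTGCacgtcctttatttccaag
All 10 coding sequences held such a pair. In *Ccl24* a second adjacent pair lay upstream, at codons 19 and 20, and in *Ccl6* and *Ccl9* the pair lay further from the start codon than in the other 8 genes.

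Levels of different genes were compared per length, as TPM, which divides reads by exon length and scales each library to the same sum. *Ccl9* and *Ccl6* were the most abundant ligands in every genotype. In WT livers, *Ccl9* had 104 ± 24.9 TPM, *Ccl6* 19.1 ± 2.01, *Ccl24* 5.80 ± 1.04, and *Ccl5* 2.86 ± 0.970 (mean ± SD, n = 3), with no overlap among these 4. Below *Ccl5* each gene overlapped the one above it, from *Ccl2* at 2.01 ± 1.44 TPM to *Ccl17* at 0.208 ± 0.228. In Mcl1Δhep livers the order changed below the first 2 genes. *Ccl9* stood at 180 ± 46.2 TPM, *Ccl6* at 64.5 ± 27.9, and *Ccl2* came next at 12.2 ± 4.69. *Ccl4* followed at 5.97 ± 1.83 TPM, and *Ccl5*, *Ccl24*, *Ccl7*, and *Ccl3* each overlapped the gene above. *Ccl22* and *Ccl17*, at 1.48 ± 0.287 and 1.37 ± 0.417 TPM, stood lowest. In Mcl1Δhep Sting1-/- livers *Ccl9* (127 ± 34.2 TPM) and *Ccl6* (34.1 ± 8.19) were again first, and *Ccl24* (6.98 ± 1.91) and *Ccl2* (6.09 ± 1.37) overlapped. Sting1-/- livers had *Ccl9* at 108 ± 6.15 TPM, *Ccl6* at 17.8 ± 2.40, *Ccl24* at 6.68 ± 2.05, *Ccl5* at 2.42 ± 0.370, and *Ccl2* at 1.41 ± 0.303, with no overlap among these 5.

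Summed over the 10 ligands, the level was 103 to 160 TPM in WT, 237 to 362 in Mcl1Δhep, 140 to 221 in Mcl1Δhep Sting1-/-, and 130 to 148 in Sting1-/- livers. In CPM, the sums of Mcl1Δhep (139 to 304) and Mcl1Δhep Sting1-/- livers (98.3 to 144) overlapped, so their separation depended on the scale. *Ccl9* made up 73.4 to 79.5% of the TPM sum in WT livers and 59.9 to 67.1% in Mcl1Δhep livers. The mixture thus differed as well as the total. The 8 ligands other than *Ccl6* and *Ccl9* summed to 7.77 to 17.4 TPM in WT, 31.97 to 48.6 in Mcl1Δhep, 22.4 to 26.9 in Mcl1Δhep Sting1-/-, and 9.26 to 13.7 in Sting1-/- livers. In these TPM sums of 8 ligands, both groups with deleted *Mcl1* lay above both groups that retained it.

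**Figure D1:**
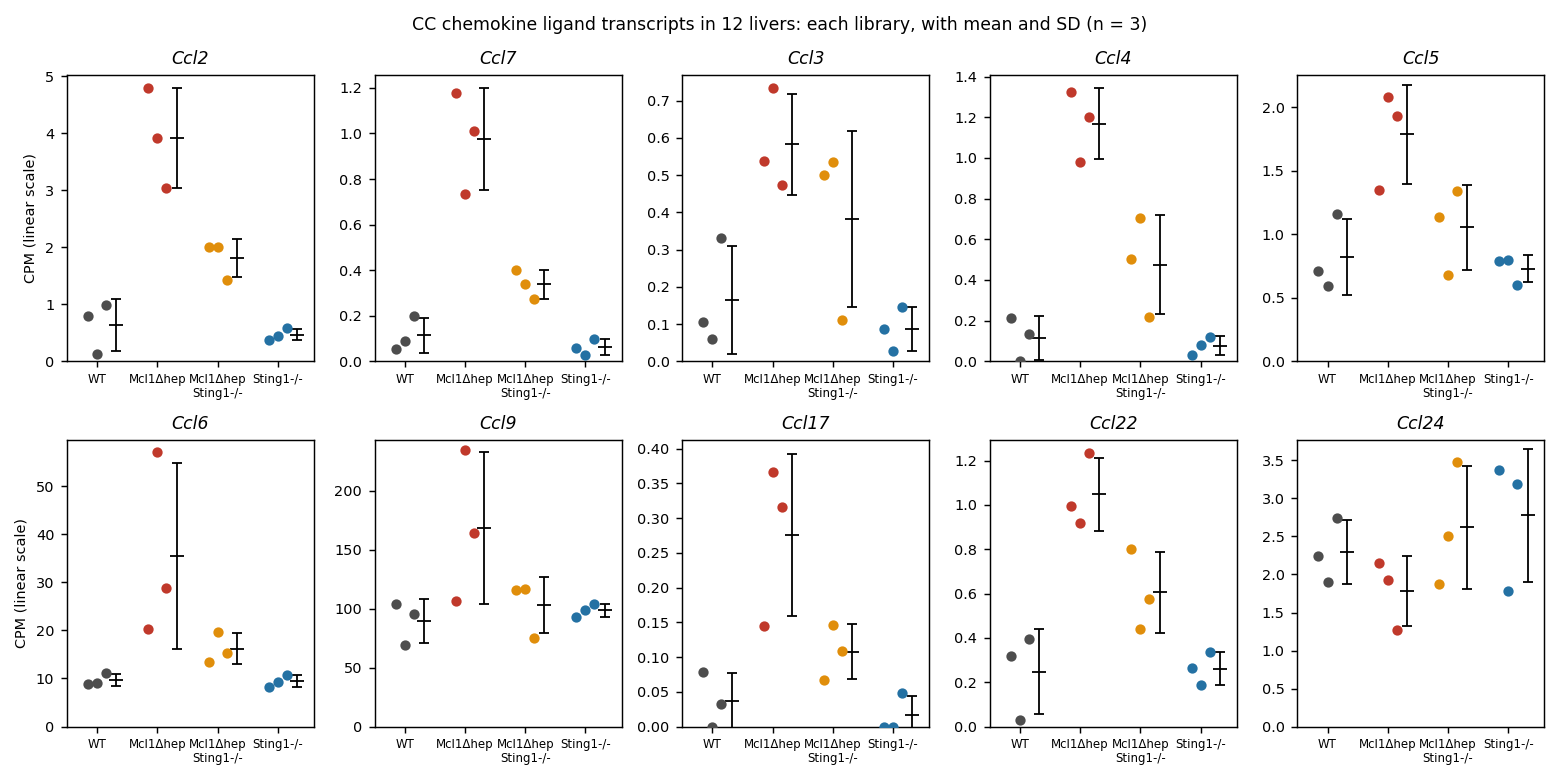
CPM (linear axes from 0) of each ligand in the 4 genotypes, with 1 point per liver, a horizontal mark at the mean, and bars of 1 SD (n = 3, cut off at 0). *Ccl2*, *Ccl4*, *Ccl6*, *Ccl7*, and *Ccl22* show the same order, with Mcl1Δhep highest, Mcl1Δhep Sting1-/- intermediate, and WT and Sting1-/- low and overlapping. The 4 groups overlap for *Ccl24*.

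The first comparison asked which ligands differ after deletion of *Mcl1* in hepatocytes. In Mcl1Δhep livers, 7 of the 9 tested ligands were called higher than in WT livers and none was called lower, where 10.8% of all tested genes were called higher and 9.43% lower. The groups did not overlap for 8 of the 9, as for 16.2% of all tested genes, and *Ccl17* did not overlap either. The median log2 fold change of the 9 ligands was 1.87, and that of all tested genes was −0.00494. In these whole livers, more cells of a type and more RNA per cell cannot be told apart.

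Among the CCR2 ligands, *Ccl2* had 0.791, 0.119, and 0.991 CPM in the WT livers and 4.80, 3.92, and 3.04 CPM in the Mcl1Δhep livers. The lowest Mcl1Δhep liver was well above the highest WT liver, and the fitted log2 fold change was 2.63 (SE 0.49, 95% interval 1.57 to 3.69, adjusted p = 0.00592), or 6.19-fold. *Ccl7*, which encodes the monocyte chemoattractant closest to *Ccl2* on the chromosome, had 0.0528, 0.0890, and 0.198 CPM in WT and 1.18, 0.734, and 1.01 in Mcl1Δhep livers. These are 2 to 6 reads per WT library and 24 to 57 per Mcl1Δhep library. Its log2 fold change of 3.12 (SE 0.50, 95% interval 2.02 to 4.21, adjusted p = 0.00239) carried the smallest p of the family.

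The inflammatory ligands *Ccl4*, *Ccl3*, and *Ccl5* were all above WT in the 3 Mcl1Δhep livers, with unequal fitted changes. *Ccl4*, known as MIP-1β, had 0.211, 0, and 0.132 CPM in WT livers and 1.32, 0.979, and 1.20 in Mcl1Δhep livers. No read fell on it in WT replicate 2, which allows up to 3 counts or 0.0890 CPM by counting error alone. Its log2 fold change was 3.29 (SE 0.71, 95% interval 1.74 to 4.85, adjusted p = 0.00836), and the 3 Mcl1Δhep livers were all above the WT range. *Ccl3*, known as MIP-1α, had 0.106, 0.0593, and 0.330 CPM in WT and 0.538, 0.734, and 0.474 in Mcl1Δhep livers. These groups did not overlap either, but the log2 fold change of 1.83 (SE 0.69, 95% interval 0.33 to 3.34, adjusted p = 0.0736) was not called. *Ccl5*, or RANTES, had the smaller log2 fold change of 1.12 (SE 0.34, 95% interval 0.38 to 1.86, adjusted p = 0.0380). It had 0.712, 0.593, and 1.16 CPM in WT livers and 1.34, 2.08, and 1.93 in Mcl1Δhep livers, so WT replicate 3 and Mcl1Δhep replicate 1 were close.

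The abundant CCR1 ligands were also higher. *Ccl6* had 8.94, 8.99, and 11.1 CPM in WT livers and 20.4, 57.2, and 28.8 in Mcl1Δhep livers, a log2 fold change of 1.87 (SE 0.31, 95% interval 1.21 to 2.54, adjusted p = 0.00355). The Mcl1Δhep livers differed far more among themselves than the WT livers did. *Ccl9* had 104, 69.0, and 95.5 CPM in WT and 107, 235, and 164 in Mcl1Δhep livers, a log2 fold change of 0.91 (SE 0.27, 95% interval 0.33 to 1.49, adjusted p = 0.0347). Mcl1Δhep replicate 1 lay just above WT replicate 1, so the groups did not overlap only by a narrow margin. Small structured RNAs took 0.325, 2.44, and 1.47% of the counts in the 3 Mcl1Δhep libraries, in the same order as *Ccl9*. With that share in the model, *Ccl9* differed by 0.23 on the log2 scale (adjusted p = 0.641) and *Ccl5* by 0.78 (adjusted p = 0.344), and the difference of *Ccl6* went from 1.87 to 0.96 (adjusted p = 0.0312). Over all genes, 402 were called higher in that fit, in place of 1629. Without Mcl1Δhep replicate 2, *Ccl9* differed by 0.59 (adjusted p = 0.157).

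Of the CCR4 ligands, *Ccl22* had 0.317, 0.0297, and 0.396 CPM in WT livers and 0.993, 0.918, and 1.23 in Mcl1Δhep livers. The Mcl1Δhep livers were close together and all above WT, with a log2 fold change of 2.07 (SE 0.55, 95% interval 0.87 to 3.28, adjusted p = 0.0232). *Ccl17*, its neighbour on chromosome 8, had 3, 0, and 1 reads in WT libraries and 7, 12, and 10 in Mcl1Δhep libraries. Without the filter on low counts its log2 fold change was 2.70 (SE 1.02, adjusted p = 0.0765) in edgeR and 2.84 (adjusted p = 0.0598) in DESeq2, so neither test called it. It was called in the edgeR fit without Mcl1Δhep replicate 1, where it passed the filter. The eotaxin *Ccl24* was the only tested ligand with a fitted value below WT. It had 2.24, 1.90, and 2.74 CPM in WT and 2.15, 1.93, and 1.26 in Mcl1Δhep livers, which overlapped, and its log2 fold change was −0.36 (SE 0.32, 95% interval −1.06 to 0.34, adjusted p = 0.443).

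The calls did not hold equally. Those of *Ccl2*, *Ccl6*, and *Ccl7* were kept, the call of *Ccl6* at a smaller size as given above, under every other setting tried except a fit to the 9 libraries without Y-linked expression, which has 1 WT liver (adjusted p = 0.106, 0.154, and 0.108). The call of *Ccl4* was also lost with the small structured RNA share in the model (3.43 on the log2 scale, adjusted p = 0.0505), and those of *Ccl5*, *Ccl9*, and *Ccl22* were lost when Mcl1Δhep replicate 2 or Mcl1Δhep replicate 3 was left out, which left 4 calls in each case. The calls of *Ccl5*, *Ccl9*, and *Ccl22* were lost too with that share or Y-linked expression as a covariate, and with only the compared libraries. *Ccl5* further lost its call without the filter on low counts, and without WT replicate 1 or WT replicate 2. *Ccl9* further lost its call with the replicate number as a block, and without WT replicate 2 or WT replicate 3.

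The second comparison asked whether these ligands differ when Mcl1Δhep mice also lack STING. In Mcl1Δhep Sting1-/- livers, 8 of the 9 tested ligands had lower fitted values than in Mcl1Δhep livers, with a median log2 fold change of −0.80 against −0.00207 for all tested genes. None was called by edgeR, where 0% of all tested genes were called lower, and 6 had an unadjusted p under 0.05, as had 3098 of the 15070 tested genes. DESeq2 called 1 ligand, *Ccl6* (log2 fold change −1.13, adjusted p = 0.0188), among 663 of 14390 genes. The groups did not overlap for *Ccl2*, *Ccl4*, *Ccl5*, *Ccl6*, *Ccl7*, and *Ccl22*, which is 6 of the 9, where 9.28% of all tested genes were lower without overlap.

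*Ccl2* had 2.004, 1.998, and 1.42 CPM in the Mcl1Δhep Sting1-/- livers, below the lowest Mcl1Δhep liver at 3.04, and its log2 fold change was −1.12 (SE 0.46, 95% interval −2.11 to −0.12, adjusted p = 0.206). *Ccl7* had 0.401, 0.341, and 0.274 CPM, a log2 fold change of −1.53 (SE 0.42, 95% interval −2.43 to −0.62, adjusted p = 0.133). The 2 CCR2 ligands thus had the same pattern of values in the livers, with 3 of 3 double-deficient libraries below 3 of 3 Mcl1Δhep libraries. *Ccl4* had 0.501, 0.707, and 0.219 CPM and a log2 fold change of −1.29 (SE 0.58, 95% interval −2.55 to −0.03, adjusted p = 0.235). *Ccl3* had 0.501, 0.536, and 0.109 CPM, so that 2 livers lay within the Mcl1Δhep range and 1 lay far below it. Its log2 fold change was −0.60 with a 95% interval of −1.95 to 0.74. *Ccl5* had 1.14, 0.682, and 1.34 CPM, and the highest of these was all but level with the lowest Mcl1Δhep liver.

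*Ccl6* had 13.5, 19.7, and 15.4 CPM, and the highest of these lay just under the lowest Mcl1Δhep liver at 20.4. Its log2 fold change was −1.13 (SE 0.30, 95% interval −1.79 to −0.47, adjusted p = 0.134). *Ccl9* had 116, 117, and 75.4 CPM and overlapped the Mcl1Δhep group, with a log2 fold change of −0.71 (95% interval −1.30 to −0.13, adjusted p = 0.180). Both results depended on single Mcl1Δhep livers. Without replicate 1, which had the lowest *Ccl6* and *Ccl9*, *Ccl6* was called at −1.40 (adjusted p = 0.00632) and *Ccl9* at −0.95 (adjusted p = 0.0177), in a fit that called 3108 of 15357 genes, 1394 of them lower. Without replicate 2, which had the highest, *Ccl6* differed by −0.60 (adjusted p = 0.445) and *Ccl9* by −0.40 (adjusted p = 0.604). With the small structured RNA share in the model, they differed by −0.37 and −0.16 (adjusted p = 0.746 and 0.901). *Ccl22* had 0.802, 0.439, and 0.575 CPM and a log2 fold change of −0.80 (95% interval −1.90 to 0.30), and *Ccl17* had 2, 6, and 4 reads. *Ccl24* had the only positive value, with 1.87, 2.51, and 3.48 CPM and a log2 fold change of 0.55 (95% interval −0.15 to 1.25, adjusted p = 0.339).

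**Figure D2:**
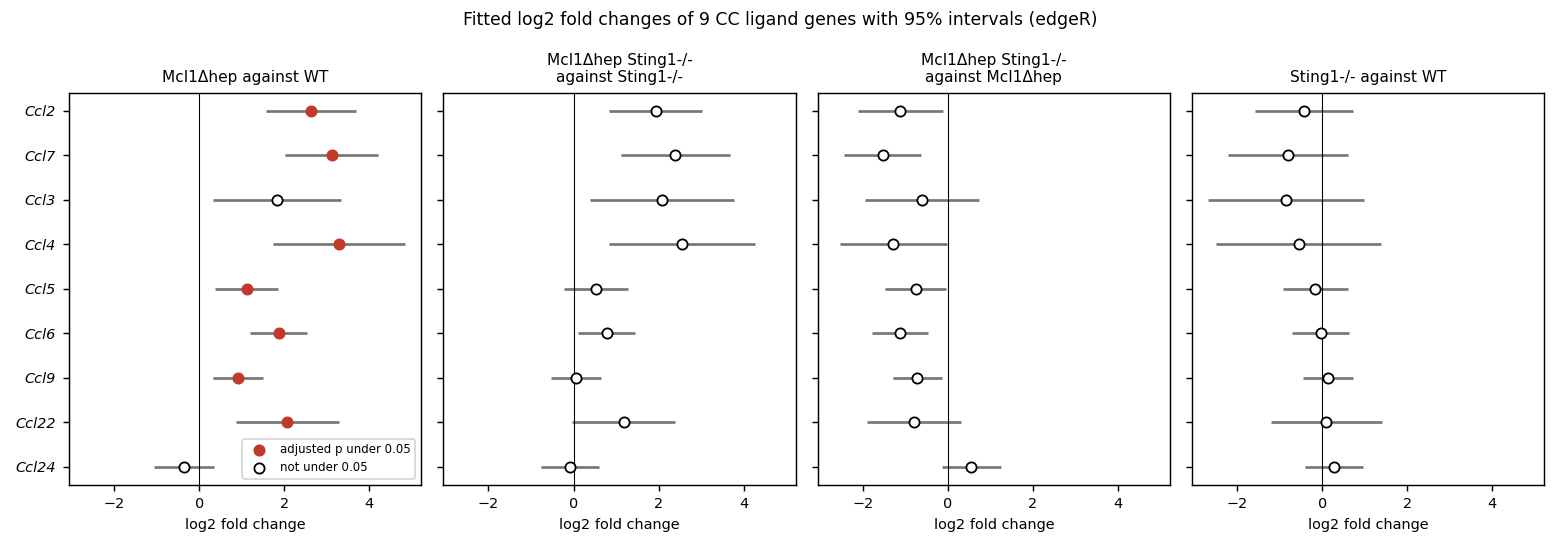
Fitted log2 fold changes (x axis) of the 9 tested ligands (rows) in 4 comparisons, with 95% intervals as bars and filled points for an edgeR adjusted p under 0.05. Filled points are seen only for Mcl1Δhep against WT, and *Ccl24* lies near 0 or opposite in sign to *Ccl2* in each panel.

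The next comparison set Mcl1Δhep Sting1-/- against Sting1-/- livers, where both groups lack STING. Fitted values were higher with *Mcl1* deleted for 8 of 9 ligands (median log2 fold change 1.18, and −0.00893 for all tested genes). edgeR called none, where 0.677% of all tested genes were called higher. Of the 9, 5 had an unadjusted p under 0.05, as had 1709 of the 15070 tested genes. DESeq2 called 461 of 15791 genes, 377 of them higher, and 3 of these were ligands, namely *Ccl2* (adjusted p = 0.00404), *Ccl4* (adjusted p = 0.0290), and *Ccl7* (adjusted p = 0.0414). The groups did not overlap for 5 of the 9, which were *Ccl2*, *Ccl4*, *Ccl6*, *Ccl7*, and *Ccl22*, where 11.5% of all tested genes were higher without overlap.

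*Ccl2* had 0.378, 0.451, and 0.579 CPM in the Sting1-/- livers, and the lowest double-deficient liver was at 1.42, for a log2 fold change of 1.93 (SE 0.50, 95% interval 0.84 to 3.02, adjusted p = 0.117). *Ccl7* had 2, 1, and 4 reads in the Sting1-/- libraries and 12, 14, and 10 in the double-deficient libraries. Its log2 fold change was 2.39 (SE 0.59, 95% interval 1.12 to 3.67, adjusted p = 0.0716). *Ccl4* had 0.0291, 0.0796, and 0.121 CPM in Sting1-/- livers and a log2 fold change of 2.55 (95% interval 0.84 to 4.27, adjusted p = 0.157). The intervals of these 3 ligands all lay above 0, as in the comparison of Mcl1Δhep with WT. That of *Ccl3* did too (log2 fold change 2.08, 95% interval 0.38 to 3.78, adjusted p = 0.282), though its groups overlapped. The intervals of *Ccl22* (1.18, −0.03 to 2.39, adjusted p = 0.448) and *Ccl5* (0.53, −0.22 to 1.28, adjusted p = 0.649) covered 0. *Ccl6*, at 8.26, 9.26, and 10.8 CPM in Sting1-/- livers, had a log2 fold change of 0.78 (95% interval 0.11 to 1.45, adjusted p = 0.348). *Ccl9* had 93.1, 98.7, and 104 CPM in Sting1-/- livers and a log2 fold change of 0.06 (SE 0.27, adjusted p = 0.964), and *Ccl24* one of −0.08 (SE 0.32, adjusted p = 0.956), and the sign of these 2 turned under other settings.

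Averaged over both *Sting1* backgrounds, deletion of *Mcl1* left 7 of 9 ligands called higher, where 9.9% of all tested genes were. They were *Ccl2* (2.28 on the log2 scale, adjusted p = 0.00163), *Ccl3* (1.96, adjusted p = 0.0210), *Ccl4* (2.92, adjusted p = 0.00279), *Ccl5* (0.82, adjusted p = 0.0365), *Ccl6* (1.33, adjusted p = 0.00241), *Ccl7* (2.76, adjusted p = 0.000674), and *Ccl22* (1.63, adjusted p = 0.0154). *Ccl3*, uncalled in either background alone, was thus called with all 12 livers, whereas *Ccl9* was not (0.49, adjusted p = 0.0997). This estimate uses the same livers as the comparisons above.

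The difference between the effects of *Mcl1* deletion in the 2 *Sting1* backgrounds was tested as well. No ligand was called by edgeR, where 0% of all tested genes were called in either direction, nor by DESeq2, which called 170 of 14853 genes. An unadjusted p under 0.05 was found for 2 of 9 ligands and for 2165 of the 15070 tested genes. The 2 were *Ccl6* (−1.10 on the log2 scale, 95% interval −2.04 to −0.15, unadjusted p = 0.0268, adjusted p = 0.312) and *Ccl9* (−0.85, 95% interval −1.68 to −0.03, unadjusted p = 0.0442, adjusted p = 0.340). For *Ccl2* the difference was −0.70 with a 95% interval of −2.22 to 0.82, which covers both a smaller and a larger effect in livers without STING.

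Without *Mcl1* deletion, Sting1-/- and WT livers overlapped for all 10 ligands, where 7.06% of all tested genes were higher and 5.46% lower without overlap. Log2 fold changes ran from −0.85 for *Ccl3* to 0.28 for *Ccl24*. edgeR called 0 of 9, where 0% of all tested genes were called higher and 0% lower, none had an unadjusted p under 0.05, and DESeq2 called 0. *Ccl6* was the closest to equal, at 9.68 ± 1.23 CPM in WT and 9.44 ± 1.28 CPM in Sting1-/- livers (log2 fold change −0.03).

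Within the Mcl1Δhep group, the ligands did not peak in the same liver. *Ccl2*, *Ccl4*, and *Ccl7* were highest in replicate 1, *Ccl3*, *Ccl5*, *Ccl6*, *Ccl9*, and *Ccl17* in replicate 2, and *Ccl22* in replicate 3. *Ccl6* ran from 20.4 to 57.2 CPM and *Ccl9* from 107 to 235 CPM in these 3 livers. Among the WT livers, replicate 2 was lowest for 8 of the 10 ligands, *Ccl6* and *Ccl7* being the exceptions. Over the 12 libraries, the 28 pairs among the 8 tested ligands other than *Ccl24* had Pearson correlations of log2 CPM between 0.588 and 0.972 (median 0.798), and the 8 pairs with *Ccl24* between −0.484 and −0.195. *Ccl2* was closest to *Ccl4* (0.972) and to *Ccl22* (0.948). The points of these correlations share libraries, depth, and genotype, so they describe the pattern across groups as much as that within them.

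**Figure D3:**
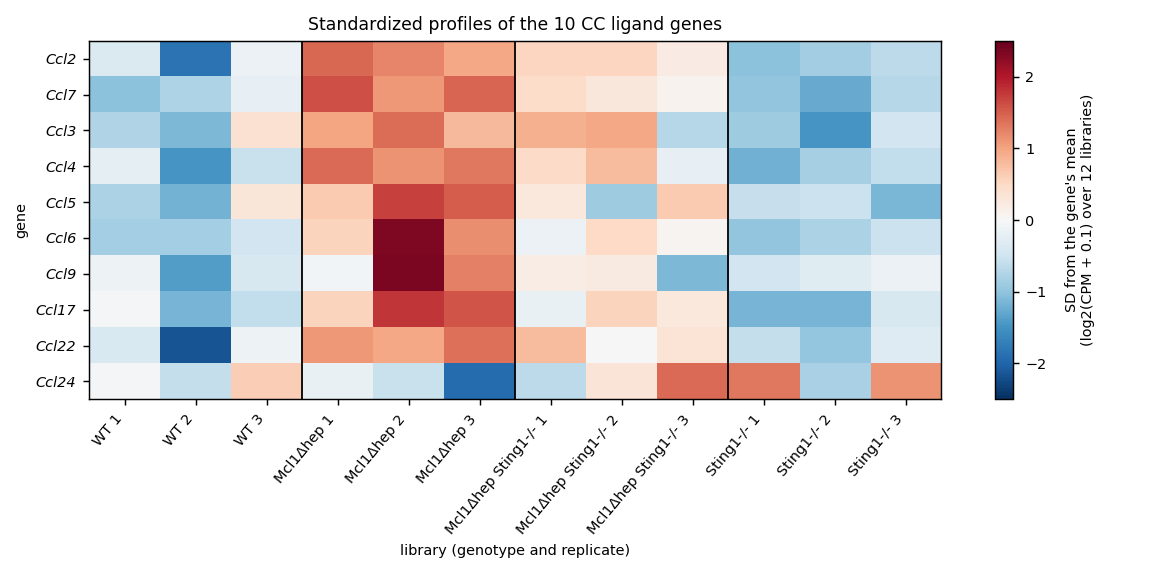
Heat map of the 10 ligands (rows) in the 12 libraries (columns), coloured by the distance from the gene's mean over libraries in SD of log2(CPM + 0.1). The Mcl1Δhep columns are above the mean for all ligands but *Ccl24* and, in replicate 1, *Ccl9*, and *Ccl6* and *Ccl9* reach 2.34 and 2.36 SD in Mcl1Δhep replicate 2.

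Among tested genes with at least 1 CPM on average, the 5 whose log2 CPM over the 12 libraries was most like the mean profile of the tested ligands were *Lilrb4a* (Pearson r of 0.972), *Vcam1* (0.970), *Cd300lb* (0.968), *Myo1f* (0.967), and *Gm49339* (0.966). *Lilrb4a* and *Cd300lb* encode receptors of myeloid cells, and *Vcam1* encodes an adhesion molecule of activated endothelium. For single ligands, *Ccl2* was most like *Myo1f* (0.959), *Cd68* (0.959), and *Spic* (0.958), where *Cd68* encodes a macrophage lysosomal protein and *Spic* a transcription factor of iron-recycling macrophages. *Ccl7* was most like *Cfl1* (0.957), *Mmp13* (0.956), and *Plek* (0.954), and *Ccl4* was most like *Acvrl1* (0.970), *Cd83* (0.968), and *Ralgds* (0.968). *Ccl6* was most like *Ms4a6d* (0.977), *Clic1* (0.972), and *Cd52* (0.969), and *Ccl9* was most like *S100a10* (0.983), *Nsmce1* (0.966), and *Dnase1l1* (0.949). *Ccl22* had *Gadd45b* (0.942), *Rgs19* (0.933), and *Gpsm3* (0.930) as nearest genes. *Ccl3* had *Cd300lb* (0.953), *Gsta13* (0.940), and *Tubb4b* (0.922), and *Ccl5*, with the lowest correlations among the called ligands, had *Adprh* (0.912), *Bicra* (0.893), and *Palm* (0.890). *Ccl24* stood furthest from any gene, with *Csnk1g3* (0.870), *Icmt* (0.867), and *Zc3h11a* (0.862). These nearest genes were picked from all tested genes and carry no test.

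Of the 10 ligand genes, 7 lie on chromosome 11 of GRCm39. *Ccl2* (chr11:81926397-81928279, plus strand) and *Ccl7* (chr11:81936532-81938351, plus strand) are 8252 bases apart. *Ccl5* (chr11:83416602-83425942, minus strand), *Ccl9* (chr11:83463745-83473161, minus strand), *Ccl6* (chr11:83478708-83483913, minus strand), *Ccl3* (chr11:83538670-83540191, minus strand), and *Ccl4* (chr11:83553383-83555509, plus strand) form a second cluster. *Ccl6* and *Ccl9* are 5546 bases apart and are the ligands with the highest levels, and *Ccl3* and *Ccl4* are 13191 bases apart. *Ccl22* (chr8:95471226-95478327, plus strand) and *Ccl17* (chr8:95534358-95538664, plus strand) lie 56030 bases apart on chromosome 8, and *Ccl24* (chr5:135598668-135601905, minus strand) lies alone on chromosome 5. The lncRNA *E230016K23Rik* runs opposite to *Ccl6* and *Ccl9* without sharing exons and was counted in the files, and lncRNA models opposite to *Ccl3*, with shared exons, and *Ccl5*, without, were not counted there. Whether the counting used strand is not given in the sources used here, so reads of *Ccl3* and its partner could have been counted together.

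The 160 bases upstream of the start site are printed for *Ccl2*, *Ccl7*, *Ccl9*, and *Ccl24*, because the first 2 moved together, *Ccl9* is the most abundant ligand, and *Ccl24* is the one that did not follow the rest. They are from GRCm39 with GENCODE vM39 start sites, 5′ to 3′ along the gene's strand, and capitals mark matches to the motifs searched.
Ccl2, chr11:81926237-81926396, plus strand: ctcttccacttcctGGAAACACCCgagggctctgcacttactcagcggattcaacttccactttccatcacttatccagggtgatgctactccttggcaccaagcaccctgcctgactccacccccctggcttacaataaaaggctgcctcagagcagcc
Ccl7, chr11:81936372-81936531, plus strand: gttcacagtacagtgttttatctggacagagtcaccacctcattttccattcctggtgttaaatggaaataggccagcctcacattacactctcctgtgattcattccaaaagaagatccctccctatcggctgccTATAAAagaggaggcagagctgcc
Ccl9, chr11:83469468-83469627, minus strand: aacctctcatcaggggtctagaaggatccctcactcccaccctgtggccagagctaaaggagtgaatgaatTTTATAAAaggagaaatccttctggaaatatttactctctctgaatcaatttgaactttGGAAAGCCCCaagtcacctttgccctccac
Ccl24, chr5:135601906-135602065, minus strand: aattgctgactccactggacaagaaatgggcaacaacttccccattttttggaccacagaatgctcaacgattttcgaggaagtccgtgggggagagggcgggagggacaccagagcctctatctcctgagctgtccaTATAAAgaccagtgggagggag
Over 250 bases upstream and on both strands, the NF-κB-like motif, which is GGG, 2 bases of any kind, and TTTCC, matched in *Ccl2* (146 to 137 bases before the start), *Ccl5* (89 to 80), and *Ccl9* (30 to 21), where 1.47% of 21594 promoters of the same length held it. The TATA box letters TATAAA matched in *Ccl5*, *Ccl7*, *Ccl9*, and *Ccl24*, where 12% of promoters did, and the matches on both strands of *Ccl9* overlap. The interferon response-like motif, which is GAAA, 2 bases of any kind, and GAAA, found in 3.32% of promoters, matched in none of the 10 windows. *Ccl24*, whose groups overlapped, and *Ccl7*, which rose in Mcl1Δhep livers, had the same 1 kind of match. These are matches of letters only.

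The receptors of the ligands gave a mixed picture. Of 10 CC receptor genes, 6 were tested, and 2 were called higher in Mcl1Δhep than in WT livers, as were 10.8% of all tested genes. *Ccr2*, the receptor of *Ccl2* and *Ccl7* on inflammatory monocytes, had 3.14, 1.48, and 2.08 CPM in WT and 5.92, 14.1, and 5.79 in Mcl1Δhep livers (log2 fold change 1.94, SE 0.36, adjusted p = 0.00622). *Ccr1*, the receptor of *Ccl3*, *Ccl5*, *Ccl6*, and *Ccl9*, had 0.475, 0.356, and 0.132 CPM in WT and 0.869, 2.51, and 1.64 in Mcl1Δhep livers (log2 fold change 2.34, SE 0.52, adjusted p = 0.0118). Both were highest in Mcl1Δhep replicate 2, as were *Ccl6* and *Ccl9*. *Ccr3*, the receptor of *Ccl24*, overlapped between the groups (0.37, 95% interval −0.81 to 1.56, adjusted p = 0.645). *Ccr4*, the receptor of *Ccl17* and *Ccl22*, had 5 reads over the 3 WT libraries and 12 over the 3 Mcl1Δhep libraries and was not tested. Of the 5 atypical receptors, which bind chemokines without G protein signalling or, as *Ccrl2*, present other ligands, none was called, with adjusted p-values from 0.0773 for *Ccrl2* upward.

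Of the 12 other CC ligands, 4 were tested and 1, *Ccl21a*, was called higher in Mcl1Δhep livers (2.01 on the log2 scale, SE 0.61, adjusted p = 0.0404). *Ccl21a* has near-identical copies, so the assignment of its reads is uncertain. The eotaxin *Ccl11*, a CCR3 ligand like *Ccl24*, was too low to test, with 6 reads over the WT, 54 over the Mcl1Δhep, 7 over the Mcl1Δhep Sting1-/-, and 4 over the Sting1-/- libraries, and 36 of these reads came from a single library. A further list held 19 genes, namely inducing cytokines, NF-κB subunits and feedback genes, and the adhesion genes *Vcam1* and *Icam1*. Of these, 15 were tested and 6 were called higher in Mcl1Δhep livers, where 10.8% of all tested genes were called higher. The 5 with the lowest p were *Vcam1* (2.19 on the log2 scale, adjusted p = 0.00126), *Icam1* (0.93, adjusted p = 0.00197), *Tnfaip3* (1.30, adjusted p = 0.00608), *Nfkb2* (1.07, adjusted p = 0.0131), and *Relb* (1.11, adjusted p = 0.0224). *Vcam1* and *Icam1* encode the adhesion molecules that leukocytes bind on vessel walls, *Tnfaip3* encodes an inhibitor of NF-κB signalling, and *Nfkb2* and *Relb* encode subunits of the noncanonical pathway. *Tnf* itself had 1.44 (95% interval 0.40 to 2.48, adjusted p = 0.0515) in this comparison. Against Mcl1Δhep livers, edgeR called no gene of these 4 lists in Mcl1Δhep Sting1-/- livers, as it called none of all tested genes (3098 had an unadjusted p under 0.05 and DESeq2 called 663).

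Markers of the leukocytes that make and follow these ligands differed between the genotypes, in some lists in the order of the ligands and in others not. Between Mcl1Δhep and WT livers, 10.8% of all tested genes were called higher and 9.43% lower. In Mcl1Δhep against WT livers, 9 of 12 monocyte and recruited macrophage markers were called higher, and their summed level was 71.6 to 88.7 CPM in WT, 129 to 229 in Mcl1Δhep, 96.2 to 102 in Mcl1Δhep Sting1-/-, and 58.6 to 79.2 in Sting1-/- livers. This is the order in which *Ccl2*, *Ccl4*, *Ccl6*, *Ccl7*, and *Ccl22* stand. Of 8 tested neutrophil markers, 6 were called higher, with sums of 4.01 to 5.61 CPM in WT, 11.3 to 26.3 in Mcl1Δhep, 7.11 to 8.24 in Mcl1Δhep Sting1-/-, and 3.61 to 8.81 in Sting1-/- livers. The neutrophil marker *Ly6g* had no read in the WT and Sting1-/- libraries. The highest monocyte and neutrophil sums were both in Mcl1Δhep replicate 2, the liver with the most *Ccl6* and *Ccl9*. Of 12 Kupffer cell markers, which mark the resident macrophages of the liver, 6 were called higher and 1, *Cd163*, lower (−2.07). Their sum was 671 to 1029 CPM in WT, 1132 to 1311 in Mcl1Δhep, 1052 to 1244 in Mcl1Δhep Sting1-/-, and 857 to 1098 in Sting1-/- livers, so the Mcl1Δhep Sting1-/- group overlapped both the Mcl1Δhep and the Sting1-/- groups.

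Of 10 markers of dendritic cells, a source of *Ccl17* and *Ccl22*, 4 were called higher, and their sums were 14.3 to 21.9 CPM in WT, 30.6 to 40.0 in Mcl1Δhep, 24.6 to 26.2 in Mcl1Δhep Sting1-/-, and 15.6 to 18.2 in Sting1-/- livers. Of 13 tested T and NK cell markers, which mark cells that make *Ccl3*, *Ccl4*, and *Ccl5*, 3 were called higher, with sums of 8.96 to 12.9 CPM in WT, 14.99 to 18.8 in Mcl1Δhep, 11.3 to 14.8 in Mcl1Δhep Sting1-/-, and 9.72 to 14.8 in Sting1-/- livers, where the last 2 groups overlapped. Both tested eosinophil and basophil markers of 7 were called higher, with sums of 1.61 to 2.77 CPM in WT, 6.12 to 9.58 in Mcl1Δhep, 3.67 to 5.38 in Mcl1Δhep Sting1-/-, and 2.07 to 2.58 in Sting1-/- livers, while *Ccl24* was not. *Ear1*, *Epx*, *Fcer1a*, and *Mcpt8* of that list had no read in WT libraries. For stellate cells and myofibroblasts, 6 of 9 markers were called higher, with sums of 289 to 499 CPM in WT, 682 to 792 in Mcl1Δhep, 492 to 753 in Mcl1Δhep Sting1-/-, and 306 to 405 in Sting1-/- livers. No marker of B cells, cholangiocytes, or endothelium was called, and 2 of 10 hepatocyte markers were called lower. Of all tested genes, 10.8% were called higher and 9.43% lower in this comparison of Mcl1Δhep with WT livers. The part of these cell types in the levels of the ligands was not tested.

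**Figure D4:**
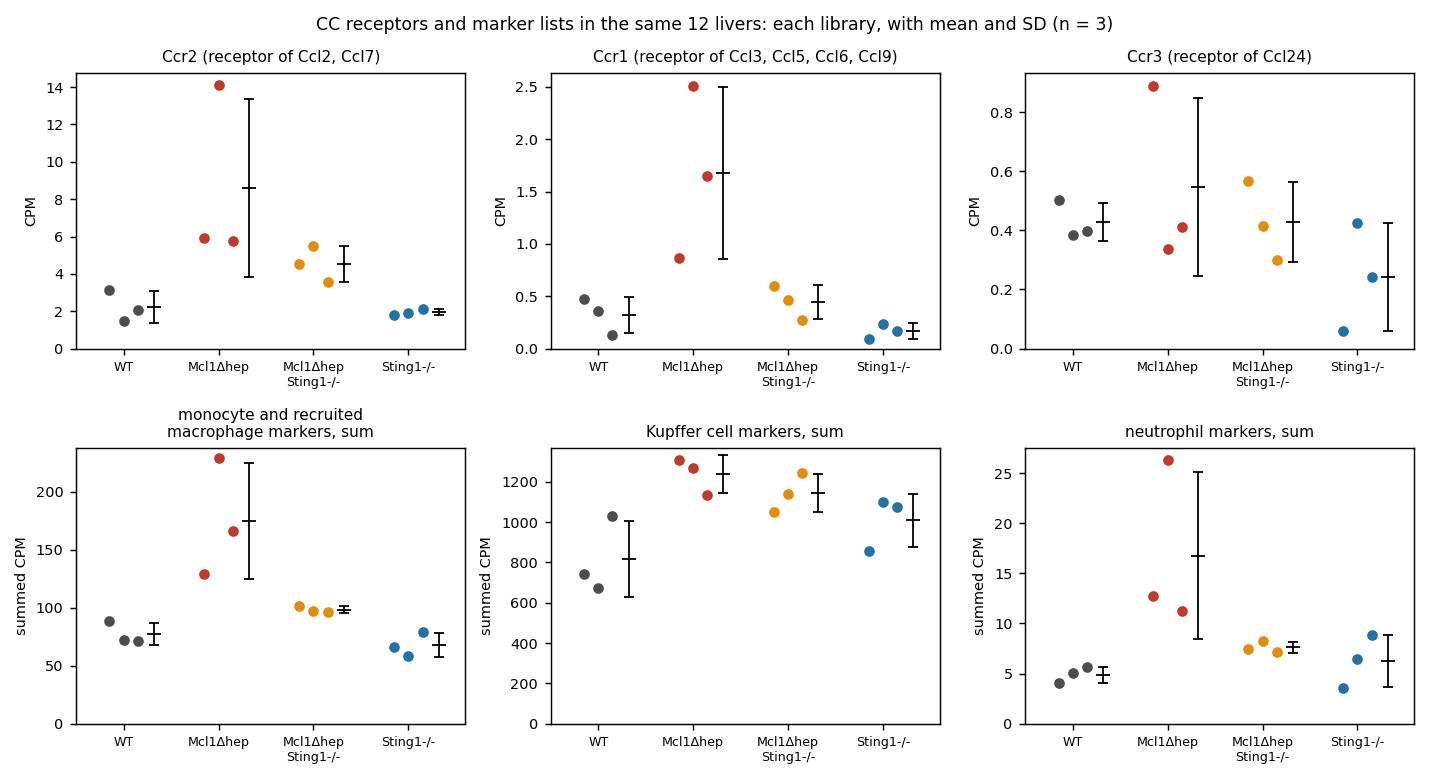
CPM of the receptor genes *Ccr2*, *Ccr1*, and *Ccr3* (top) and summed CPM of 3 marker lists (bottom) in the 4 genotypes, with 1 point per liver, a mark at the mean, and bars of 1 SD (n = 3, linear axes from 0). Mcl1Δhep replicate 2 is the highest liver for *Ccr2* (14.1), *Ccr1* (2.51), the monocyte and recruited macrophage sum (229), and the neutrophil sum (26.3), whereas *Ccr3* overlaps between WT and Mcl1Δhep livers.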

How the data were processed

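Total RNA of 12 mouse livers was sequenced on an Illumina NovaSeq, and the labels and the study name different extraction kits. The deposited files hold unnormalized counts, which the authors gave as whole reads for each Ensembl gene identifier. Per the submitters' processing notes, GRCm39, STAR, and featureCounts were used, and versions and the strand setting are not given in the sources used here. Genotype and replicate were taken from the labels.

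The counts were scaled (TMM), filtered (filterByExpr by genotype), and tested (glmQLFit, glmQLFTest) in edgeR 4.0.16 under R 4.3.3, with all 12 libraries in 1 model without covariates and a common dispersion of 0.0699. Correlations used log2 CPM with a prior count of 2. TPM used exon lengths of GENCODE vM39, which holds 39533 of the 40551 identifiers. The upper limit for a count of 0 covers counting error only. The other tools were DESeq2 1.42.0 and, in Python 3.11.15, pandas 2.3.3, numpy 2.4.6, and, for plots, matplotlib 3.10.9.

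All 10 ligands are named. Of other lists, at most 5 called genes per comparison were to be named by lowest p, and the most similar genes were the 3 per ligand and 5 for the mean profile with the highest correlation. Other receptors, *Tnf*, *Ccl11*, and *Cd163* are named beside them, chosen after their values were seen. The ligands and lists were chosen with earlier results of these data known. On simulated counts for Mcl1Δhep against WT with a log2 change of 2, edgeR recovered 193 of 200 changed genes with 18 false calls among 15103 genes, and DESeq2 recovered 192 of 200 with 25 among 17784. No 2 libraries of a genotype were duplicates. Alternatives were other size factors, no filter, DESeq2, a replicate block, 2 covariates, only the compared libraries, and leaving out each library. Human samples were not analysed here.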

Additional observations from a re-analysis of the deposited data

How the results depend on the processing

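In the comparison of Mcl1Δhep with WT livers, 7 ligands were called, and the number fell to 3 with the small structured RNA share as covariate, to 4 with Y-linked expression as a covariate, and to 4 in a fit of only the libraries compared. Over all genes, 1629 were called higher, and these fits called 402, 941, and 843 higher. In a fit of only the 9 libraries without Y-linked expression, which was chosen after seeing the data and leaves 1 WT liver, it was 0. The lone WT liver is assumed there to vary like the other groups. Over all genes that fit called 4 and had 2674 with an unadjusted p under 0.05. Leaving out 1 library gave 4 to 8. The 8, in the fit without Mcl1Δhep replicate 1, included *Ccl17*, and that fit called 2503 of 15357 genes higher. For Mcl1Δhep Sting1-/- against Mcl1Δhep livers, DESeq2 called 1 and leaving out 1 library gave 0 to 2. For Mcl1Δhep Sting1-/- against Sting1-/- livers, DESeq2 called 3 and the covariate of small structured RNAs 1, which was *Ccl6* (adjusted p = 0.0354). For *Mcl1* deletion averaged over both backgrounds, the libraries without Y-linked expression gave 2. For the difference between backgrounds, leaving out 1 library gave 0 to 1, with the 1 call in the fit without Mcl1Δhep replicate 1, which called 1574 genes. The cause of these changes was not tested.

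Among the alternative values of single ligands, 439 kept direction and side of the threshold, 29 lost the call, 8 gained one, and 23 changed sign, all 23 in comparisons where the ligand was not called. All 29 losses fell in Mcl1Δhep against WT, where 96 values kept direction and side. The other comparisons counted here had no call to lose. For Mcl1Δhep Sting1-/- against Sting1-/- livers, log2 fold changes turned for *Ccl9* (−0.0389 without libraries with Y-linked expression, −0.0440 to 0.263 leaving out 1 library) and *Ccl24* (0.0132 with Y-linked expression as a covariate, 0.103 without those libraries, −0.323 to 0.104 leaving out 1). For Sting1-/- against WT livers, leaving out 1 library gave −0.908 to 0.0309 for *Ccl2*, −1.47 to 0.0675 for *Ccl3*, −1.12 to 0.295 for *Ccl4*, −0.352 to 0.154 for *Ccl5*, −0.141 to 0.0771 for *Ccl6*, −0.0187 to 0.262 for *Ccl9*, and −0.428 to 0.560 for *Ccl22*. In the fit of the libraries without Y-linked expression, values were 0.0344 for *Ccl5*, 0.0836 for *Ccl6*, 0.207 for *Ccl7*, −0.0771 for *Ccl9*, and −0.262 for *Ccl22*, and with the small RNA covariate *Ccl9* was at −0.0888. Same-numbered libraries of different genotypes correlated at −0.541 to 0.251 after removal of group means, and differently numbered ones at −0.239 to 0.441. Between Mcl1Δhep Sting1-/- and Sting1-/- livers, same-numbered libraries were at 0.0675, 0.251, and 0.180, and differently numbered ones at −0.174 to −0.00607. These ranges cannot exclude a pairing by number between single genotypes, and sex also differed between some of the libraries. With the replicate block, 6 ligands were called in Mcl1Δhep against WT, 6 averaged over both backgrounds, and 0 in the other 4 comparisons. DESeq2 gave no adjusted p for 5 values of single ligands. With 3 livers per group and 1 to 6 reads for *Ccl7* in libraries that retained *Mcl1*, depth limits the folds of the low ligands.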
